A study of Oryza sativa Japonica Group with 32 samples.

Results

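The MADS-box genes that set the identity of floral organs in rice were followed in polyA RNA of the japonica cultivar Nipponbare. The 10 genes were OsMADS1 (Os03g0215400), OsMADS2 (Os01g0883100), OsMADS3 (Os01g0201700), OsMADS4 (Os05g0423400), OsMADS6 (Os02g0682200), OsMADS7 (Os08g0531700), OsMADS8 (Os09g0507200), OsMADS13 (Os12g0207000), OsMADS16 (Os06g0712700) and OsMADS58 (Os05g0203800), taken by these identifiers from the 38978 genes of the expression table. Their m6A rows were found by the same identifiers and numbered 94 of 205691. The series holds 32 libraries of 8 tissues, with 2 treated and 2 untreated libraries per tissue, numbered as replicates in the labels. The study describes the replicates of each tissue as biological. The tissues were panicle at heading, endosperm and embryo, both 10 days after anthesis, and 5 vegetative tissues, namely flag leaf 10 days after anthesis, seedlings at 2 weeks and at 8 days, and plumules 3 days after germination, grown in light or in the dark. No mutant or transgene was part of the design, and all tissues came from the same cultivar.

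MADS-box proteins bind DNA as dimers and larger complexes, and flowers are patterned by which of them are present together. In the ABCDE scheme, worked out first in Arabidopsis and snapdragon, B proteins with C proteins make stamens, C proteins make carpels and end the floral meristem, D proteins make ovules, and E proteins are partners in all of these complexes. In a grass spikelet, lodicules stand in the place of petals, and lemma and palea enclose the floret. N6-methyladenosine (m6A) is a methyl mark on adenosines of mRNA. The assay, m6A-SAC-seq, marks methylated adenosines enzymatically so that they appear as mismatches in the sequenced cDNA. Probes of known m6A content translate the mismatch rate into a fraction between 0 and 1.

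The adenosine with the highest m6A fraction in panicle is shown for each gene below with its neighbours on both sides, read 5′ to 3′ as the site table gives them, with the measured A in capitals, because the results on sites turn on them. Those of OsMADS4, OsMADS16, OsMADS3, OsMADS58, OsMADS7 and OsMADS6 had a fraction of 1 in panicle and were flagged by the authors in no other tissue. The missing flag does not mean that the fraction was 0 there. Without a flag, the OsMADS16 site had 1.00 in flag leaf at a depth of 88. In endosperm, OsMADS6 had 0.839 (depth 75), OsMADS7 0.568 (depth 653), OsMADS58 0.361 (depth 158) and OsMADS3 0.291 (depth 119). The OsMADS4 site had a depth of 1 in endosperm and 8 in embryo. Genome positions refer to IRGSP-1.0.
OsMADS2: gaAct
OsMADS4: tcAgc
OsMADS16: gcAcg
OsMADS3: gcAga
OsMADS58: atAct
OsMADS13: agAcc
OsMADS1: aaAca
OsMADS7: atAct
OsMADS8: ggAct
OsMADS6: ctAcc

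Expression was read from the 16 untreated libraries in TPM, a level scaled to library size and gene length that can be compared between genes. Each library held between 12856679 and 15516038 reads, worked out from the TPM values and gene lengths. The libraries of one tissue had a Pearson r between 0.991 and 0.996 across genes on the log2(TPM + 1) scale, whereas panicle 1 had an r between 0.639 and 0.786 with libraries of other tissues. The tissue labels were checked with marker genes. The summed level of 5 anther genes was 344 and 315 TPM in panicle and between 0.44 and 6.91 TPM in every other library. It rested mostly on OsC6, a lipid transfer protein of the anther, at 291 TPM, and CYP703A3, at 1.31 TPM, was not called. Green leaf genes, 4 in the list, summed to 4466 and 4476 TPM in panicle, 1735 and 2247 TPM in endosperm, 25.7 and 29.9 TPM in embryo and 11810 and 12072 TPM in flag leaf. Seedlings had 29006 and 29478 TPM at 2 weeks and 38277 and 34215 TPM at 8 days. Plumules had 2243 and 2016 TPM in light and 2879 and 2885 TPM in the dark, so the sum was not higher in light. Of these genes CAB2R and RBCS had higher means in panicle, 1954 and 1793 TPM, than in flag leaf, 1660 and 1376 TPM, without a call. What the green-tissue RNA in the endosperm sample adds to the levels of the floral genes there was not tested. The summed level of 5 endosperm genes was 22120 and 20491 TPM in endosperm, 1361 and 1443 TPM in embryo and 17.1 and 23.9 TPM in panicle. The summed level of 3 embryo genes was 29042 and 24739 TPM in embryo and 6388 and 7513 TPM in endosperm, so each of the seed samples carried RNA of the other's marker genes.

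All 10 genes were higher in panicle than in the mean of the other 7 tissues. Their differences ran between 4.20 for OsMADS58 and 7.98 for OsMADS1 on the log2(TPM + 1) scale, with a median of 6.39. Over all 28562 genes tested the median was 0.42, and 22.3% of them were called higher and 6.38% lower. A gene was called when limma gave a Benjamini-Hochberg adjusted p under 0.05 and the log2 difference was at least 1. The scale of the libraries bears on the background: 6382 genes were called higher and 1823 lower on TPM as deposited, against 3308 higher and 3619 lower after quantile normalization, and the 10 genes were called higher under both. The summed level of the 10 genes was 2623 and 2695 TPM in panicle, 800 and 735 TPM in endosperm, 31.6 and 32.0 TPM in embryo, 22.4 and 17.3 TPM in flag leaf, and between 6.35 and 12.5 TPM in the other 8 libraries. In such bulk tissue, fewer cells that express a gene and less RNA per cell cannot be told apart.

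**Figure D1:**
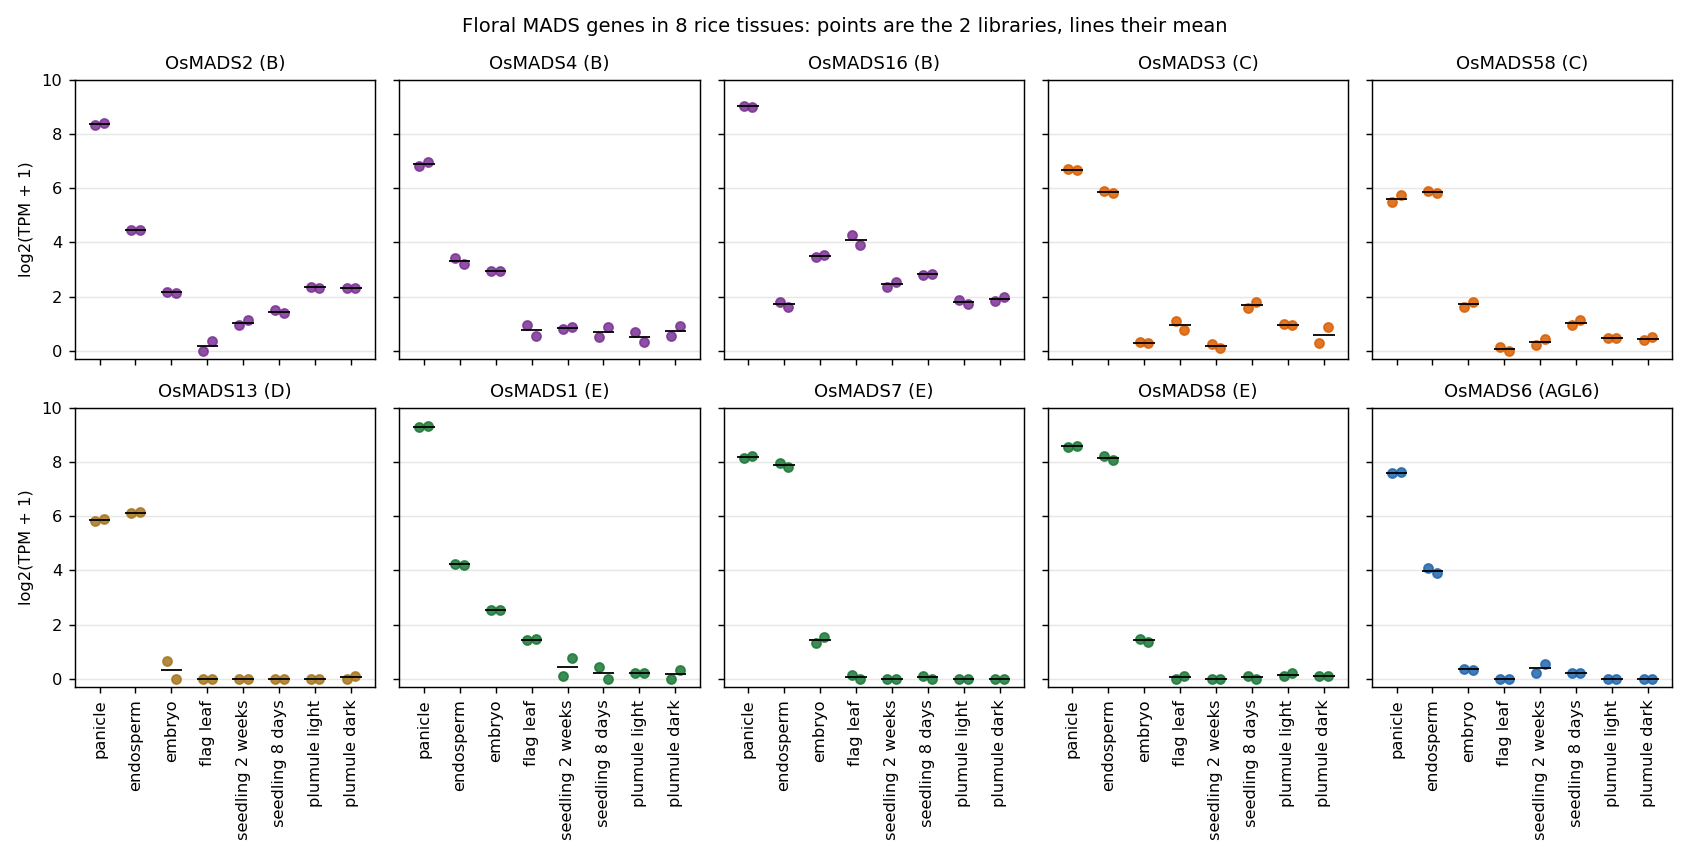
Level of each gene in 8 tissues as log2(TPM + 1), with 1 point per untreated library and a line at the mean, and the class of each gene in its title and colour. All genes stand high in panicle, OsMADS3, OsMADS7 and OsMADS8 stand somewhat lower in endosperm, and both endosperm points of OsMADS58 and OsMADS13 lie above their panicle points.

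The B genes were compared first. OsMADS16, also known as SUPERWOMAN1, is the rice counterpart of APETALA3 of Arabidopsis and is needed for lodicules and stamens. It had 522 and 509 TPM in panicle, against 18.5 and 14.1 TPM in flag leaf, 10.0 and 10.7 TPM in embryo and 2.50 and 2.08 TPM in endosperm. Both panicle libraries stood far above every other library, the lower of them 27.5 times above the highest. The difference between panicle and the mean of the other tissues was 6.40 (SE 0.10, limma adjusted p = 1.34e-15). OsMADS16 was the one gene of the 10 with its lowest mean in endosperm, though the libraries there overlapped with those of plumules in light. It was also the only one with more than 5 TPM in a vegetative tissue.

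OsMADS2 and OsMADS4 are counterparts of PISTILLATA of Arabidopsis, the partners of OsMADS16, and OsMADS2 has its main known role in lodicules. OsMADS2 had 319 and 339 TPM in panicle, against 20.9 and 20.8 TPM in endosperm and 4.13 and 4.03 TPM in plumules grown in light. OsMADS4 had 112 and 125 TPM in panicle, against 9.61 and 8.11 TPM in endosperm and 6.69 and 6.71 TPM in embryo. For both genes the panicle libraries did not overlap with any other, and the differences from the mean of the other tissues were 6.38 (SE 0.09, limma adjusted p = 6.77e-16) and 5.51 (SE 0.14, limma adjusted p = 3.10e-13). The level of OsMADS2 was 2.86 and 2.71 times that of OsMADS4 in the panicle libraries, 2.18 and 2.57 times in endosperm, and 0.528 and 0.511 times in embryo. OsMADS4 was thus above OsMADS2 in embryo and below it in panicle, a change of order that was not tested.

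The C genes OsMADS3 and OsMADS58 are counterparts of AGAMOUS of Arabidopsis. OsMADS3 has its main part in stamens and OsMADS58 in ending the floral meristem and in carpels. OsMADS3 had 103 and 100.0 TPM in panicle, 59.1 and 54.9 TPM in endosperm, and 1.96 and 2.47 TPM in seedlings at 8 days, its highest vegetative level. Its difference between panicle and the mean of the other tissues was 5.18 (SE 0.13, limma adjusted p = 3.26e-13). OsMADS58 had 43.7 and 52.4 TPM in panicle, against 58.4 and 55.1 TPM in endosperm and 2.08 and 2.46 TPM in embryo. Both endosperm libraries thus stood above both panicle libraries. The level of OsMADS3 was 2.36 and 1.91 times that of OsMADS58 in the panicle libraries, 1.01 and 0.996 times in endosperm, and 0.121 and 0.0875 times in embryo, so the pair was unequal in panicle and level in endosperm.

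OsMADS13 is the D gene, related to SEEDSTICK of Arabidopsis, and is needed for ovule identity. It had 55.8 and 58.3 TPM in panicle, against 67.8 and 70.5 TPM in endosperm. In 10 of the 16 libraries it had 0 reads, which allows a level of up to 0.204 to 0.266 TPM at 3 reads per library. Embryo 1 held 8 reads of it (0.559 TPM) and embryo 2 held 0. Its difference between panicle and the mean of the other tissues was 4.93 (SE 0.12, limma adjusted p = 2.63e-13).

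The E genes are related to SEPALLATA of Arabidopsis. OsMADS1, or LEAFY HULL STERILE1, shapes lemma and palea and acts in the floral meristem. It was the most abundant of the 10 genes in panicle, with 618 and 638 TPM, against 17.8 and 17.5 TPM in endosperm, 4.86 and 4.80 TPM in embryo and 1.68 and 1.77 TPM in flag leaf. These 4 tissues did not overlap with each other, and panicle held 96.2% of the sum of its 8 tissue means. The difference from the mean of the other tissues was 7.98 (SE 0.15, limma adjusted p = 1.15e-14).

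OsMADS7 and OsMADS8 are close copies of each other that act together in the inner floral organs. OsMADS7 had 279 and 296 TPM in panicle, 247 and 227 TPM in endosperm and 1.53 and 1.89 TPM in embryo. OsMADS8 had 378 and 383 TPM in panicle, 301 and 266 TPM in endosperm and 1.76 and 1.58 TPM in embryo. In the 10 vegetative libraries the highest level was 0.102 TPM for OsMADS7 and 0.151 TPM for OsMADS8, close to that of 1 or 2 reads. The level of OsMADS8 was 1.35 and 1.29 times that of OsMADS7 in panicle and 1.22 and 1.17 times in endosperm. In embryo it was 1.15 and 0.838 times, so the order differed between the embryo libraries. How reads shared between such near copies were counted is not stated, so their exact split is uncertain.

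OsMADS6 belongs to the AGL6 group, which stands beside the E genes, and acts in palea and floral meristem. It had 192 and 196 TPM in panicle, against 15.9 and 13.9 TPM in endosperm and 0.299 and 0.240 TPM in embryo. The panicle libraries did not overlap with any other, and the difference from the mean of the other tissues was 6.90 (SE 0.09, limma adjusted p = 3.53e-16). Its relative OsMADS17 (MADS17 in the file), of the same group, had a panicle mean of 127 TPM and 12.7 TPM in endosperm.

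Against single tissues the panicle was compared with the same fit, in which the 7 comparisons share the panicle libraries. All 10 genes were called higher in panicle than in each of 6 tissues. The share of all tested genes called higher was 34.4% against embryo, 28.0% against flag leaf, 21.0% against seedlings at 2 weeks, 22.3% against seedlings at 8 days, 26.7% against plumules in light and 26.4% against plumules in the dark. The smallest difference among them was 3.90, for OsMADS58 against embryo, followed by 3.95 for OsMADS4 against embryo.

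Endosperm was the exception. OsMADS16, OsMADS1, OsMADS2, OsMADS6 and OsMADS4, 5 of the 10 genes, were called higher in panicle than in endosperm, with differences of 7.30, 5.08, 3.91, 3.62 and 3.60. With 46.5% of all genes tested called higher too, that share is close to the background. None of the 10 was called lower, beside 6.70% of all genes. For the other 5 genes no call was made. OsMADS3 had a difference of 0.82 (95% interval 0.45 to 1.19, limma adjusted p = 0.000534), OsMADS8 one of 0.43 (0.20 to 0.65, adjusted p = 0.00174) and OsMADS7 one of 0.28 (0.05 to 0.51, adjusted p = 0.0284), all under the minimum of 1. OsMADS58 had -0.24 (-0.52 to 0.04, adjusted p = 0.103) and OsMADS13 -0.27 (-0.62 to 0.07, adjusted p = 0.130).

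For these 5 genes the result differed between settings, that is between scalings of TPM and count models on recovered reads. The median difference of all genes between the tissues was 0.91 on TPM as deposited, -0.0036 after quantile normalization and 0.11 with edgeR on recovered reads. All 5 genes lay below that median on TPM as deposited and with edgeR. After quantile normalization OsMADS3 and OsMADS8 lay just above it, at 0.10 and 0.07, and OsMADS7 below it at -0.16, none of them called. With edgeR the log2 fold changes of OsMADS3, OsMADS8 and OsMADS7 were -0.34, -0.75 and -0.90, and OsMADS58 and OsMADS13 were called lower in panicle at -1.42 and -1.45, as were 19.5% of all genes. Quantile normalization also called OsMADS58 and OsMADS13 lower, at -1.06 and -1.03, with 16.7% of all genes. The 5 genes that were higher in panicle remained so in every setting.

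**Figure D2:**
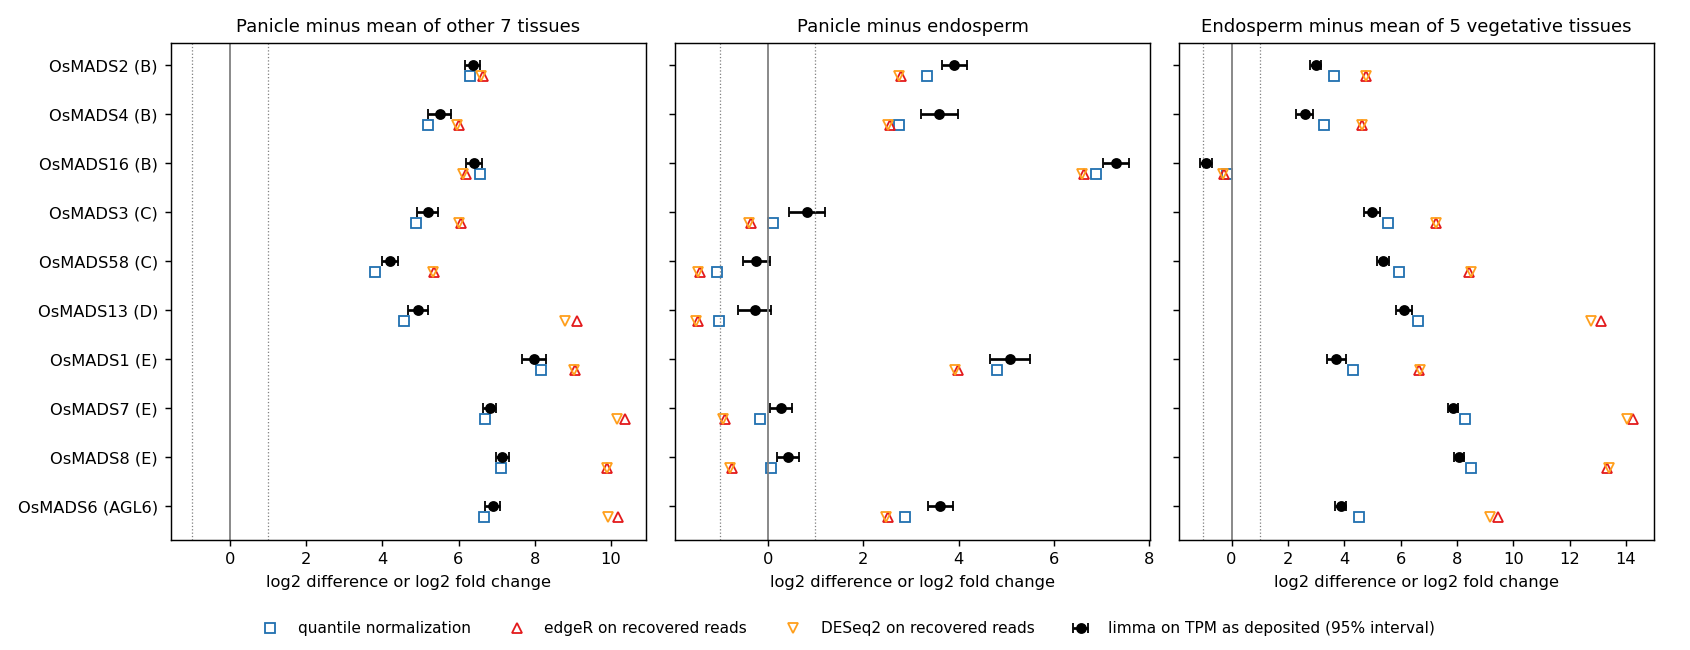
Differences of the 10 genes in 3 comparisons, with black points for limma on log2(TPM + 1) with 95% intervals and open symbols for the other scalings and tools, and dotted lines at 1 and -1. In panicle minus endosperm, OsMADS3, OsMADS7 and OsMADS8 cross 0 between settings, OsMADS58 and OsMADS13 stay below 0, and the other 5 lie between 2.48 and 7.30 in the settings shown.

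Endosperm was also set against the mean of the 5 vegetative tissues. Called higher were 9 of the 10 genes, beside 8.68% of all genes tested, with a median over the 10 of 4.43 beside -0.62 over all genes, of which 34.0% were called lower. The highest were OsMADS8 at 8.07 (SE 0.08, limma adjusted p = 7.20e-17), OsMADS7 at 7.87 (SE 0.08, adjusted p = 8.91e-17) and OsMADS13 at 6.12 (SE 0.12, adjusted p = 2.65e-14). OsMADS58 and OsMADS3 followed at 5.385 and 4.997. The sizes for OsMADS8, OsMADS7, OsMADS13 and OsMADS6 depend on the pseudocount of 1, since many vegetative libraries held 0 reads of them. OsMADS16 alone was not called, with -0.90 (95% interval -1.11 to -0.69). On recovered reads its log2 fold change was -0.28 with edgeR (adjusted p = 0.152) and -0.32 with DESeq2 (adjusted p = 0.171).

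In embryo, 5 of the 10 genes were called higher. Against the mean of the vegetative tissues, OsMADS4 was 2.25 higher in embryo (SE 0.14, limma adjusted p = 3.43e-09), OsMADS1 2.05, OsMADS7 1.41, OsMADS8 1.35 and OsMADS58 1.24, on the log2(TPM + 1) scale. These 5 of 10 stood beside 10.4% of all genes tested, with 24.8% called lower. With edgeR and DESeq2 on recovered reads, 9 of the 10 genes were called higher and OsMADS3 lower. Over all genes, edgeR called 20.6% higher and 23.2% lower, and DESeq2 5911 higher and 7203 lower of 32810. Some of these calls rested on few reads. The embryo libraries held 8 and 0 reads of OsMADS13, 4 and 3 of OsMADS6, and 5 and 4 of OsMADS3. The embryo mean of OsMADS6, 0.27 TPM, was below its mean in seedlings at 2 weeks, 0.31 TPM. Marker genes of the endosperm were found in embryo at 3.07% to 8.96% of their endosperm level. OsMADS13, OsMADS3, OsMADS8, OsMADS7 and OsMADS6 were found there at 0.404%, 0.409%, 0.591%, 0.721% and 1.81% of their endosperm level, below all 5 of these markers, and OsMADS58 at 3.998%, within their range. OsMADS2 stood at 16.7%, OsMADS1 at 27.4%, OsMADS4 at 75.6% and OsMADS16 at 451%. How much of the low embryo levels came with endosperm RNA was not tested.

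The order of the tissues was not the same for all genes. Panicle and then endosperm led for 7 of them, endosperm and then panicle for OsMADS58 and OsMADS13, and panicle and then flag leaf for OsMADS16. Below these, neighbours in the order overlapped in between 1 pair of tissues (OsMADS2) and 5 pairs (OsMADS13), mostly among the vegetative tissues. For OsMADS2 the order went on with both plumules, which overlapped with each other, before embryo, seedlings at 8 days, seedlings at 2 weeks and flag leaf. For OsMADS16 only both plumules, and plumules in light with endosperm, overlapped. The tissue index tau, which is 0 for an even level and 1 for a level in 1 tissue alone, ran between 0.71 for OsMADS16 and 0.91 for OsMADS6, beside a median of 0.36 over all genes tested.

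Other MADS genes were mixed. Of the 40 further genes with a MADS symbol, 25 passed the filter on low values. Of these, 17 were called higher in panicle than in the mean of the other tissues, 1 lower and 7 neither. Their median difference was 1.64. Over all genes tested, 22.3% were called higher and 6.38% lower, with a median of 0.42. Not all of the 17 had their highest level in panicle. The largest differences were those of OsMADS17 at 5.75, OsMADS14 at 5.16, OsMADS5 at 4.68, OsMADS18 at 4.13 and OsMADS56 at 3.70. OsMADS14 and OsMADS18, of the clade of APETALA1 and FRUITFULL that acts in meristem identity, were nearly as high in flag leaf, with means of 89.6 and 78.0 TPM in panicle against 77.3 and 70.1 TPM in flag leaf. OsMADS56, a flowering-time gene related to SOC1 of Arabidopsis, had 77.2 TPM in panicle and 126 TPM in flag leaf. OsMADS22, of the SVP clade, was the one called lower, at -1.28, with 21.7 TPM in panicle and 137 TPM in flag leaf. OsMADS5, an E relative, followed the floral genes, with 32.3 TPM in panicle against 1.86 TPM in endosperm.

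A second list held 17 floral regulators, of which 14 were tested. All MADS genes in it also belong to the further MADS genes above. Of the list, 10 were called higher in panicle than in the mean of the other tissues and none lower, with a median of 2.37. Over all genes tested, 22.3% were called higher and 6.38% lower. OsMADS21, OsMADS29 and OsMADS32 were among the 10, each with its highest level in a tissue other than panicle. OsMADS21, a relative of OsMADS13, had 8.37 TPM in panicle against 61.0 TPM in endosperm, and OsMADS29, a B-sister gene that acts in maternal tissues of the seed, had 3.55 TPM in panicle against 45.2 TPM in endosperm. OsMADS32 had 14.4 TPM in panicle and 29.7 TPM in embryo and was listed at 0 in endosperm. OsMADS31 was called higher in panicle, at 10.4 TPM against 1.69 to 4.20 TPM elsewhere, and OsMADS30 was not called, at 1.05 TPM.

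Of the regulators outside the MADS family, DL, a YABBY gene of carpel and leaf midrib, had a mean of 80.3 TPM in panicle and at most 6.39 TPM elsewhere, a difference of 4.06 (SE 0.10, limma adjusted p = 2.11e-13). FON1, a receptor kinase that limits the floral meristem, had 29.8 TPM and was called higher by 2.96. SNB, an AP2-type gene of the spikelet meristem, had 24.1 TPM in panicle against 58.8 TPM in plumules in the dark and was not called. RFL, the LEAFY counterpart, had 0.070 TPM in panicle and was not called. FON2, at 0.331 TPM in panicle, and APO1 and G1, listed at 0 there, did not pass the filter and were not tested. EG1, a lipase gene, had 1.36 TPM and was not called.

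Genes with a similar profile were looked for by Pearson r of log2(TPM + 1) over the 16 libraries, among genes with a symbol and at least 10 TPM in a tissue. For the mean of the E genes these were OsAGO14 (r = 0.991), OsUBC37 (0.988) and EAT1 (0.981), a regulator of the tapetum that was also on the list of anther genes. For OsMADS6 they were OsFbox417 (0.991), EAT1 (0.990) and OsFbox287 (0.987). For the B genes they were OsSTA101 (0.990), OsAGP7 (0.988) and OsBURP04 (0.983), of which OsAGP7 had 329 TPM in panicle. For the C genes they were OsSub53 (0.984), OsRH52A (0.983) and OsAGO14 (0.981), and for OsMADS13 OsRH52A (0.995), OsSub53 (0.994) and OsSTA114 (0.991). The last 3 were above their panicle level in endosperm, as was OsMADS13, with OsRH52A at 39.7 TPM in panicle and 58.3 TPM in endosperm. With 2 libraries per tissue that are alike, these values describe likeness over 8 tissues.

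m6A was then followed on the same transcripts. The site table gives 1 fraction and 1 depth per tissue, with both replicates combined by the authors, so no value below has an error and none was tested. Counted sites are those that carry the authors' flag in a tissue at 20 reads or more. The 10 genes held 77 counted sites in panicle, with a mean fraction of 0.404, and each gene had at least 3. In endosperm 48 sites of 8 genes were counted, in flag leaf 5 and in embryo 4, and in the other 4 tissues none. Depth followed expression: 91 of the 94 listed sites had a depth of at least 20 in panicle, 71 in endosperm, 18 in embryo, 14 in flag leaf, 5 in seedlings at 8 days, 3 in plumules in the dark, 1 in plumules in light and 0 in seedlings at 2 weeks. Apart from OsMADS16 in flag leaf, sites in the vegetative tissues were therefore mostly not detectable at this depth.

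In panicle the sites lay towards the 3′ end. Of the 77, 49 (63.6%) fell in the 3′ UTR and 19 (24.7%) in coding sequence, against 40.5% and 32.3% of all 70609 sites counted in panicle. The mean fraction was 0.445 in the 3′ UTR and 0.270 in coding sequence, against 0.511 and 0.303 over all sites. The RAC motif (R is A or G, with the methylated A in the middle) held 46 sites or 59.7%, against 59.0% of all. By the 3 central bases, the mean fraction was 0.527 at AAC, 0.297 at GAC and 0.212 at GAT, in the same order as 0.614, 0.350 and 0.245 over all sites. At 6 sites the fraction was 1, and all 6 lay outside RAC and GAT. Over all panicle sites 29.5% of those outside RAC and GAT had a fraction of 1, against 9.68% of RAC and 0.236% of GAT sites.

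**Figure D3:**
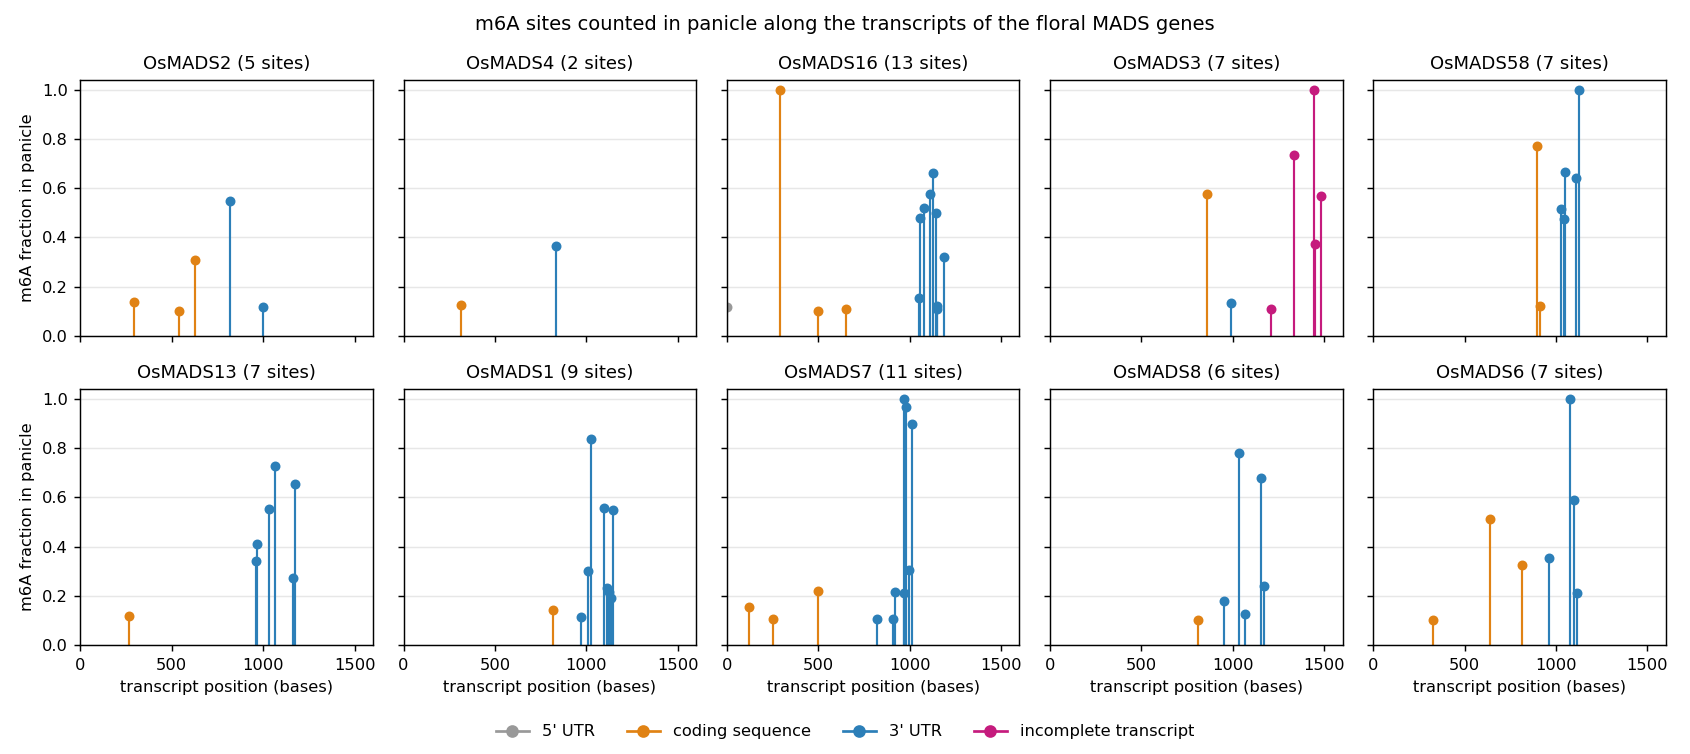
m6A fraction in panicle (0 to 1, 1 pooled value per site) against the position in the transcript in bases, for the counted sites of each gene that have such a position, coloured by the annotated region (3 sites have no position and are left out). Most sites lie at the 3′ side, 49 of the 77 in the 3′ UTR, where the mean fraction is 0.445, and the coding sites have a mean of 0.270.

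Among the B genes, OsMADS16 had the most counted sites, 13, of which 9 lay in the 3′ UTR between transcript positions 1049 and 1189. The site tgAca at position 30173707 of chromosome 6 had a fraction of 0.663 at a depth of 1375, and the coding site gcAcg at position 30177707 had 1.00 at a depth of 1942. OsMADS2 had 5 sites, with agAca in coding sequence, at position 38321769 of chromosome 1, second at 0.309. OsMADS4 had 3, led by tcAgc at a splice site, at position 20761390 of chromosome 5, with 1.00 at a depth of 60. The same letters recurred in these relatives, which was seen after their values were known. The context gaAct in the 3′ UTR had a fraction of 0.547 in OsMADS2 at position 38321578 of chromosome 1, 0.365 in OsMADS4 at position 20761638 of chromosome 5 and 0.479 in OsMADS16 at position 30173777 of chromosome 6. It was not limited to the B genes, since OsMADS58 also had gaAct in the 3′ UTR, at position 6447040 of chromosome 5, with 0.516. The context agAcc in coding sequence lay 28 bases from a splice junction both in OsMADS2, at a fraction of 0.136, and in OsMADS4, at 0.127.

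Of the C and D genes, OsMADS58 had 7 counted sites with the highest mean fraction of the 10 genes, 0.598. Its 5 sites in the 3′ UTR had fractions between 0.475 and 1.00, with atAct at position 6446941 of chromosome 5 at the top at a depth of 81, and its coding site aaAgg at position 6447562 had 0.771. OsMADS3 had 7 counted sites, 5 of them on a transcript annotated as incomplete. Among these, gcAga at position 5559598 of chromosome 1 had 1.00 at a depth of 106 and agAcc at position 5559764 had 0.732 at a depth of 282. OsMADS13 had 8 counted sites, with agAcc at position 5590136 of chromosome 12 at 0.729 (depth 86) and aaAct at position 5590246 at 0.652 (depth 49). Depths were lowest for OsMADS13, with a median of 92.5 over its counted sites.

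Among the E genes, OsMADS7 had 11 counted sites. Close together in its 3′ UTR on chromosome 8 stood atAct at position 26512176 with 1.00, aaAct at 26512188 with 0.968 and caAct at 26512222 with 0.896, at depths of 402, 355 and 240. OsMADS8 had 7 counted sites, led by ggAct at position 19659600 of chromosome 9 at 0.779 and tgAct at 19659716 at 0.677. The letters aaAct also occur at 2 listed sites in the 3′ UTR of OsMADS8, where the fraction was 0.153 and 0.143 in panicle, not counted, against 0.248 and 0.258 in endosperm, counted. OsMADS1 had 9, led by aaAca at position 6053030 of chromosome 3 with 0.836 at a depth of 2383 and ggAcc at 6052957 with 0.557. OsMADS6 had 7, led by ctAcc at position 27883891 of chromosome 2 with 1.00 and ggAtc at 27883913 with 0.588.

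Panicle and endosperm both reached 20 reads at 71 sites, which could be compared. The fraction was higher in panicle at 40 and lower at 31, with a median difference of 0.016, beside 60377 higher and 53837 lower and a median of 0.00 over all 122188 such sites. Counted in both were 37 sites, with 21 higher and 16 lower in panicle. Of all 27813 sites counted in both, 12033 were higher, 13227 lower and 2553 equal, with a median difference of 0.00. A count in panicle but not in endosperm was made at 40 sites, of which 18 had an endosperm depth under 20. Of the 77 sites counted in panicle, 37 were thus also counted in endosperm, beside 27813 of 70609 over all sites. At 10 of the 11 sites of OsMADS7 the fraction was higher in panicle, but all 11 were counted in panicle and 8 in endosperm, a choice that favours the panicle. Of all sites counted in panicle, 35561 of 53450 were higher there. OsMADS58 averaged 48.1 TPM in panicle and 56.8 TPM in endosperm, and 6 of its 8 sites had a higher fraction in panicle, with a median difference of 0.25. Here too 7 of the sites were counted in panicle and 5 in endosperm, and over the 4 counted in both, 3 were higher in panicle with a median difference of 0.17. Over the 8 sites of OsMADS7 counted in both, 7 were higher in panicle, with a median difference of 0.058. OsMADS13, at 57.1 TPM in panicle and 69.1 TPM in endosperm, had 5 of 12 sites higher in panicle and a median difference of -0.01.

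Single sites showed how far the tissues could lie apart. At caAct of OsMADS7 the fraction was 0.896 in panicle and 0.260 in endosperm, at depths of 240 and 339. At its neighbour aaAct it was 0.968 in panicle and 0.730 in endosperm. In OsMADS58 caAcc at position 6446958 had 0.639 in panicle and 0.262 in endosperm, not flagged, at depths of 99 and 188. At gcAga of OsMADS3 it was 1.00 in panicle and 0.291 in endosperm, where the site was not flagged. The reverse was seen at aaAct of OsMADS3 at position 5559591, with 0.373 in panicle and 0.648 in endosperm, at depths of 107 and 120. It was also seen at caAgg of OsMADS6 at position 27883178, with 0.514 in panicle and 1.00 in endosperm, in endosperm at a depth of 60. The intron site taAca of OsMADS8 at position 19658198 had 0.442 in panicle, not flagged, and 0.955 in endosperm, at depths of 40 and 27. Nearly equal were the fractions of agAcc of OsMADS3, at 0.732 in panicle and 0.724 in endosperm, and aaAtt of OsMADS13, at 0.552 in panicle and 0.556 in endosperm.

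**Figure D4:**
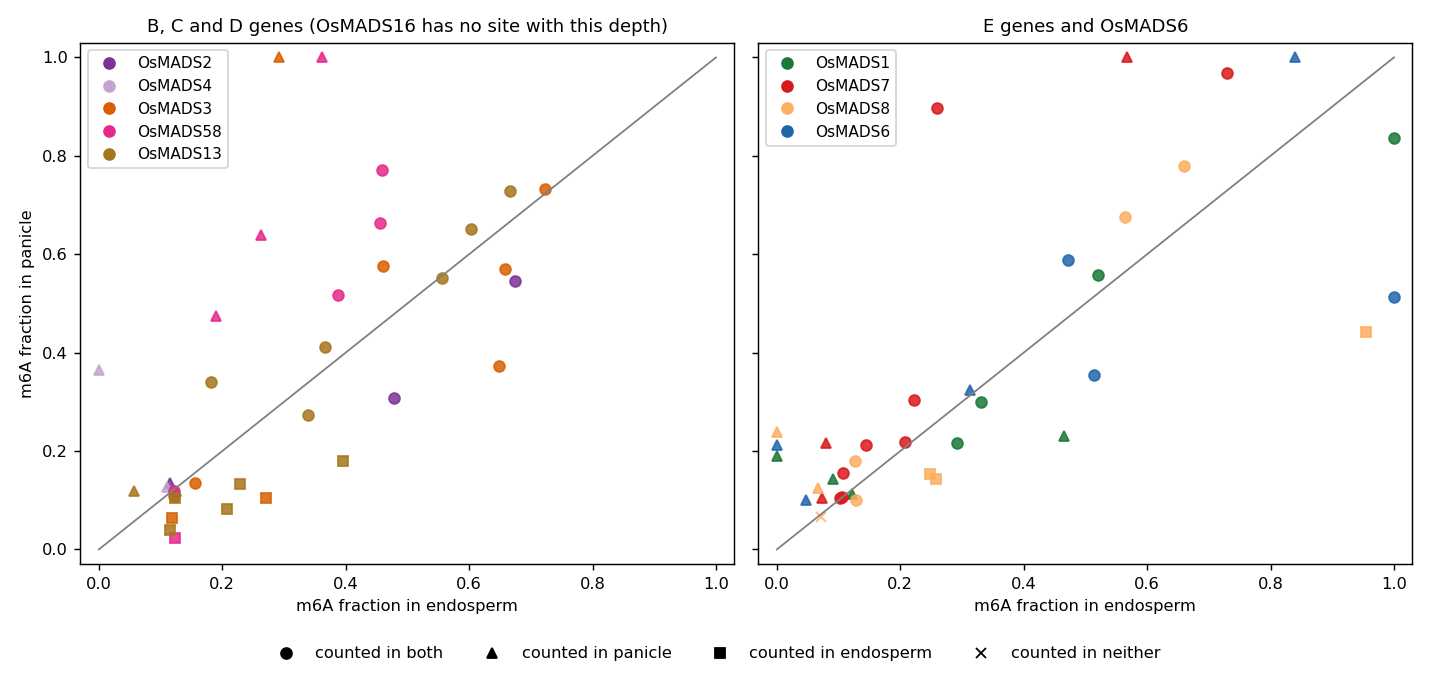
m6A fraction in panicle (vertical axis) against endosperm (horizontal axis) for the 71 sites read at least 20 times in each tissue, coloured by gene and shaped by the tissue in which the site was counted, with a line of equal fractions. OsMADS7 has 10 of 11 sites and OsMADS58 6 of 8 above the line, and OsMADS13 has 5 of 12.

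OsMADS16 alone had enough RNA outside panicle and seed to be read in a leaf. Of its sites, 14 reached 20 reads in panicle and in flag leaf, with flag leaf depths between 32 and 105. The fraction was lower in panicle at 10 of them, higher at 3 and equal at 1, with a median difference of -0.042. Over all 141539 sites that did so, 49.7% were lower in panicle. Among the sites counted in panicle, a choice that favours the panicle, 8 of 12 of OsMADS16 were lower in panicle, beside 29.1% of all. Left out of these 12 were agAct at 30174256 and cgAga at 30177748, counted in neither tissue. Their fractions were 0.026 and 0.035 in panicle and 0.074 and 0.065 in flag leaf. In the 3′ UTR aaAcc at position 30173725 had 0.577 in panicle and 1.00 in flag leaf. The site tgAca at 30173707 had 0.663 in panicle and 0.989 in flag leaf, and ggAta at 30173645 had 0.320 in panicle and 0.625 in flag leaf. An exception was gaAct at 30173777, with 0.479 in panicle and 0.339 in flag leaf, where it was not flagged, unlike the sites named before it. Against embryo, 7 of 13 sites were lower in panicle and 6 higher, beside 43.0% lower of all 130683 sites with such depth. The site aaAcc at 30173758 had 0.519 in panicle and 1.00 in embryo at a depth of 42. The depths in leaf and embryo were far below those in panicle, and their part in these differences was not tested.

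**Figure D5:**
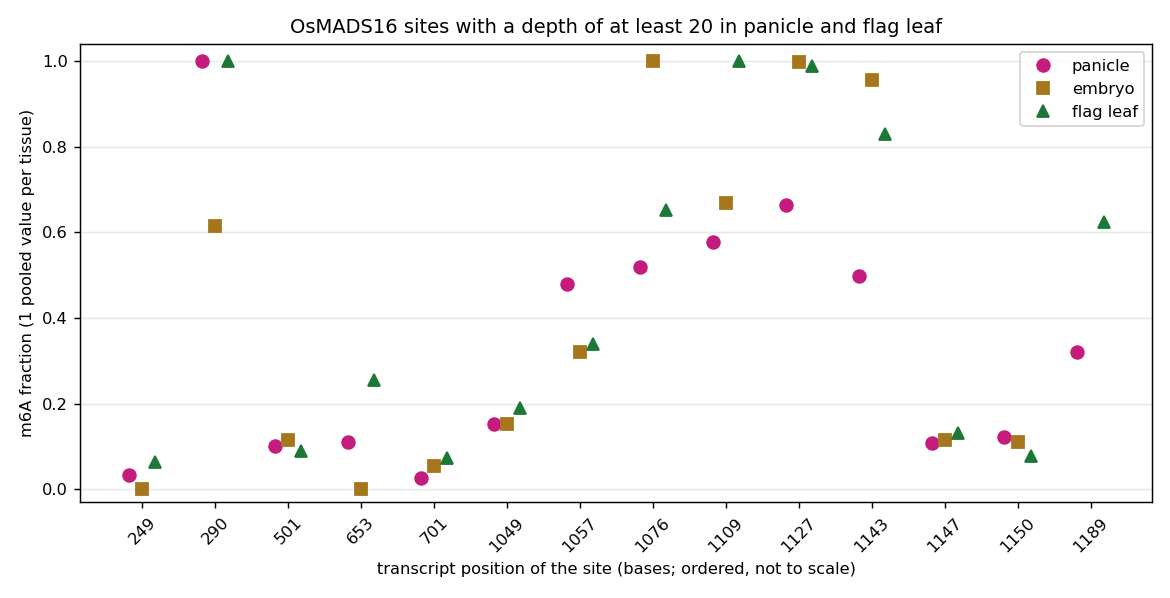
m6A fractions of the 14 OsMADS16 sites that reached 20 reads in panicle and flag leaf, in the order of transcript position, with embryo shown where its depth also reached 20. The flag leaf points lie above the panicle points at 10 of the 14 sites.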

How the data were processed

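The study profiled polyA RNA of 8 rice tissues by m6A-SAC-seq, with treated and untreated libraries, on the IRGSP-1.0 genome. The sources used here name neither aligner nor counter. TPM per gene was deposited for each of the 16 untreated libraries. The authors also deposited, per site and tissue, an m6A fraction calibrated with spike-in probes and pooled over both replicates, a whole-number depth count and a detection flag whose rule is not stated. How the depths of the libraries were combined is unknown, so no interval was set on a fraction. One flag column, of seedlings at 2 weeks, has a misspelled header. No column of per-sample values was left unmatched.

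limma 3.58.1 (R 4.3.3, trend and robust) was fitted to log2(TPM + 1), two-sided, with tissue as the factor and all 16 libraries in the fit, so the spread is shared. Genes needed 1 TPM in at least 2 libraries, which all 10 genes reached in panicle. Log2 differences understate the change of low genes on this scale. TPM times gene length gave whole reads for 100% of values up to 100 reads (tolerance 0.1), which edgeR 4.0.16 and DESeq2 1.42.0 took as input. Limits set by 0 reads cover counting error only. Python 3.11.15, pandas 2.3.3 and matplotlib 3.10.9 were used.

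Other settings tried were the pseudocount, the filter, quantile normalization, the threshold, the replicate block, left-out libraries and, for sites, the depth minimum, the flag and the motif. The genes, lists and tests were chosen with earlier results of these data known. Besides the 10 genes, the text names the other MADS genes with up to 5 of the largest called differences in each direction at a mean of at least 1 TPM, all list genes in the file, the 3 most similar genes per class, and in each gene the 2 counted panicle sites of highest fraction. Further sites were chosen after their values were seen. Of 22 list entries, 5 had no matching symbol and were not used. Gene names follow the literature; the file lists OsMADS1 as LHS1, OsMADS3 as RAG, OsMADS6 as MFO1, OsMADS8 as OsMADS24, OsMADS16 as SPW1, and several others without the prefix Os.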

Additional observations from a re-analysis of the deposited data

How the results depend on the processing

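The call of all 10 genes as higher in panicle than in the mean of the other 7 tissues was kept under the other pseudocount, the other filters, quantile normalization, edgeR, DESeq2, the vegetative tissues as reference and every left-out library. Over the settings OsMADS58 ranged between 3.80 and 5.49, OsMADS1 between 7.93 and 9.39, OsMADS13 between 4.57 and 9.12, OsMADS6 between 6.67 and 10.19 and OsMADS7 between 6.68 and 10.37. With edgeR the difference of OsMADS1 was 9.07, below those of OsMADS7, OsMADS6, OsMADS8 and OsMADS13. With adjusted p alone, 17069 genes were higher and 6007 lower in panicle; with quantile normalization the numbers were 3308 and 3619. Against endosperm, 8 of the 10 genes were higher in panicle with adjusted p alone, beside 70.6% of all genes. Lower were 2 under quantile normalization, edgeR and DESeq2, beside 16.7%, 19.5% and 17.8% of all genes. OsMADS7 reversed to -0.16 under quantile normalization, OsMADS7, OsMADS8 and OsMADS3 to -0.90, -0.75 and -0.34 with edgeR and to -0.94, -0.79 and -0.39 with DESeq2. The cause was not tested. In endosperm against vegetative tissues, 1 gene was lower with a pseudocount of 0.1 (43.2% of all genes) and with adjusted p alone (65.7%). In embryo against vegetative tissues, 9 were higher and 1 lower with a pseudocount of 0.1, adjusted p alone, edgeR and DESeq2, beside 14.8%, 26.4% and 20.6% of all genes higher and 31.6%, 50.4% and 23.2% lower in the first 3 of these, and 5911 higher and 7203 lower of 32810 with DESeq2. OsMADS13 reversed to -0.0112 without embryo replicate 1, the one embryo library with reads of it, and was 0.629 without embryo replicate 2. Leaving out each of the 16 libraries changed no count of called genes by more than 1.5 times.

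Replicate numbers were not used to pair the libraries in the main fit. Deviations of same-numbered libraries had an r above 0.1 in 14 of 28 tissue pairs (median 0.097, between -0.20 and 0.24). These values do not settle whether the numbers pair the libraries. With the replicate number as a block, all 10 genes were higher in panicle than in the other tissues and 5 higher than in endosperm. No call of the 10 genes changed.

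For m6A, the mean fraction of counted panicle sites was 0.405 with no depth minimum, 0.408 at a depth of at least 50, 0.386 with a fraction of at least 0.1 in place of the flag, and 0.387 at the 46 sites with AAC or GAC, of which 28 were in the 3′ UTR. Depth under 20 limits what can be said of sites outside panicle and endosperm.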
